A study of Mus musculus with 7 samples.

Results

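Open chromatin was described at the loci of 3 nuclear factor I genes, Nfia, Nfib and Nfix, which encode transcription factors of 1 family. The loci were taken as fixed windows of the mouse build mm9, chr4:97400000-97830000 for Nfia (430 kb), chr4:81900000-82250000 for Nfib (350 kb) and chr8:87200000-87360000 for Nfix (160 kb). Every peak lying wholly within a window was a member, and no peak crossed a window's edge. There were 849 members among the 1148114 peaks of all deposited lists, 267 in the Nfia window, 341 in the Nfib window and 241 in the Nfix window. The windows are set by position and not by any measured value, though earlier results of these data were known when they were chosen.

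The data were ATAC-seq peak lists of 7 mouse samples, 1 per group; in this assay the Tn5 transposase inserts sequencing adapters into accessible DNA. The female samples came from lines of the 129S1 x Cast:EiJ F1 cross, each a single line: neural progenitor cells (NPC) with the deltaFT deletion (line sgdgb2), WT NPC (line C2) and mESC (line F1216), which are WT embryonic stem cells. As known of the study, deltaFT removes a region of the X chromosome around the Dxz4 repeat, so all 3 loci lie outside it. The NPC grew in N2/B27 medium with FGF and EGF at 10 ng/mL, the mESC in serum with mLIF, all on gelatin. The male samples, called TXY, were J1 mESC that carry an inducible Xist on their X chromosome, with the RepA deletion in Xist (deltaRepA) or without it (WT), each given 2 ug/mL doxycycline (dox) for 48 hours or left untreated. Each replicate used 50K cells. For each female line 1 list of peaks reproducible between its 2 libraries by the irreproducible discovery rate (IDR list) and 1 list per library were deposited, and for each TXY condition 1 list from merged libraries. The labels do not say whether the 2 libraries of a line came from separate cultures, and with 1 sample per group no test between groups was possible. All intervals below are exact 95% intervals that cover counting error only. For shares of peaks they take each peak as an independent draw, which neighbouring peaks and pieces of 1 site are not.

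The deltaFT NPC, WT NPC and mESC IDR lists held 37270, 41126 and 28907 peaks with 11085592, 11014387 and 6490181 reads in them. The TXY lists held between 125498 and 142526 peaks, with no read counts, so their depth is unknown. One label of the mESC sample names neural progenitors, against its title and growth medium. Of all autosomal mESC peaks, 94.0% to 96.4% overlapped a peak of each TXY stem cell list, against 59.2% to 65.4% of deltaFT NPC peaks and 53.4% to 58.8% of WT NPC peaks. Marker genes of either cell type were not looked up, since gene positions of build mm9 were not used here. For the same reason no member is placed in an exon, an intron or a promoter.

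Nuclear factor I proteins bind DNA as dimers at a palindrome, TTGGC and GCCAA set 5 bases apart, and bind single copies such as TTGGCA more weakly. NFIA is known for starting the production of glia in the embryonic spinal cord, NFIB for the maturation of the lung and the cerebral cortex, and NFIX for the timing of differentiation and the quiescence of neural stem cells. All are active in neural progenitors of the developing brain, where loss of a family member delays their differentiation. In the RefSeq annotation of build GRCm38.p6, Nfia is 541 kb long, which exceeds its window, Nfib 217 kb and Nfix 97 kb. The Nfib and Nfia genes overlap no other protein-coding gene there, whereas Nfix overlaps Lyl1 and has Trmt1 and Dand5 as its neighbours, and the Nfix window may hold parts of those genes.

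Of the 3 genes, Nfia and Nfix were matched by symbol in the RefSeq promoter sequences of GRCm38.p6, which run from 250 bases before to 50 after an annotated start. The Nfia promoter and the first of 4 Nfix promoters are shown as examples of the family's own start sites. They were not placed on the mm9 peaks. Both are given 5′ to 3′ on the gene's strand, Nfia from chr4:97581693-97581992 (plus strand) and Nfix from chr8:84780033-84780332 (minus strand). Capitals mark the SOX letters in Nfia and the AP-1 letters in Nfix.
Nfia promoter: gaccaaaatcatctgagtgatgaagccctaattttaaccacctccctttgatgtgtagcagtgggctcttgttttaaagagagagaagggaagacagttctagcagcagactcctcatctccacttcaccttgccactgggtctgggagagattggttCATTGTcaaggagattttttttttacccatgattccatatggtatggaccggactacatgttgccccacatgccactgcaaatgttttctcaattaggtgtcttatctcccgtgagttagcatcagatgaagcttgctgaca
Nfix promoter: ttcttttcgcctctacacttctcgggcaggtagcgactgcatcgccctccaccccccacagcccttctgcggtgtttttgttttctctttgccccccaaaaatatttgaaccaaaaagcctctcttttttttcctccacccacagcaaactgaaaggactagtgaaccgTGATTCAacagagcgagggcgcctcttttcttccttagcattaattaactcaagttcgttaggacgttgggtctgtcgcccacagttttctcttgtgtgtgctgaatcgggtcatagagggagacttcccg
The search on both strands covered the NFI palindrome, which 0.0365% of 32851 RefSeq promoters hold, and the single copy TTGGCA, held by 14.1%. Neither occurred in these 2 windows nor in the other 3 Nfix promoters. The shorter TTGGC was not part of the search. Each of those other 3 Nfix promoters holds it, followed by a base other than A, and its share over all promoters was not computed. The SOX letters ACAATG, here read on the opposite strand from base 159 of the Nfia promoter, occur in 12.6% of promoters. The AP-1 letters TGANTCA, from base 170 of the Nfix promoter, occur in 7.81%, and they overlap no other motif searched there. E boxes (CANNTG) occur in 72.3% of promoters and were not capitalised; the Nfia promoter holds 5 and this Nfix promoter 0. The share of G and C was 44.7% in the Nfia promoter and 49.3% in the Nfix promoter shown, below the median of 52.7% over all promoters. The other 3 Nfix promoters were at 57.3%, 53.0% and 44.3%, so not all lay below that median. These letters describe the sequences and not binding.

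The NPC lists held more open sites at all 3 loci than the mESC list, and the deltaFT NPC list held the most. Over the 3 windows there were 56 IDR peaks in deltaFT NPC, 38 in WT NPC and 14 in mESC. Relative to list size this is 15.0, 9.24 and 4.84 members per 10000 peaks. The Nfia window held 17 peaks in deltaFT NPC, 11 in WT NPC and 4 in mESC. The Nfib window held 23, 14 and 7 peaks in the same order of lines, and the Nfix window 16, 13 and 3. By length Nfix, the shortest window, was the densest in every list, TXY lists included, except the mESC IDR list. The mESC library lists held 68.7 and 87.5 peaks per Mb at Nfix, against 45.7 and 40.0 at Nfib. Of the IDR lists, that of deltaFT NPC held 39.5 and 65.7 peaks per Mb at Nfia and Nfib and more at Nfix, against 15.0 over the autosomes. In WT NPC there were 25.6 per Mb at Nfia, 40 at Nfib and 81.2 at Nfix, against 16.5. In mESC the Nfia window held 9.30 peaks per Mb, below the autosomal 11.4, whereas Nfib (20) and Nfix (18.7) were above it.

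The library lists, which are not filtered for reproducibility, kept this order of the lines. They held 101 and 91 members in deltaFT NPC, 75 and 88 in WT NPC, and 40 and 40 in mESC. Per 10000 list peaks these are 11.2 and 11.9, 8.60 and 8.69, and 5.14 and 5.64, so the libraries of the 3 lines did not overlap. By locus, the NPC libraries held more peaks than those of mESC at each gene. Per 10000 list peaks this order did not hold at Nfix, with 3.11 and 3.52 in deltaFT NPC, 1.83 and 2.37 in WT NPC, and 1.41 and 1.97 in mESC. At Nfia the 2 NPC lines overlapped, with 37 and 28 peaks in the deltaFT libraries and 27 and 32 in the WT libraries. At Nfib both deltaFT libraries held 36 peaks and both WT libraries 32, and at Nfix they held 28 and 27 against 16 and 24. The surplus of IDR peaks in deltaFT NPC was thus larger than that in its library lists.

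**Figure D1:**
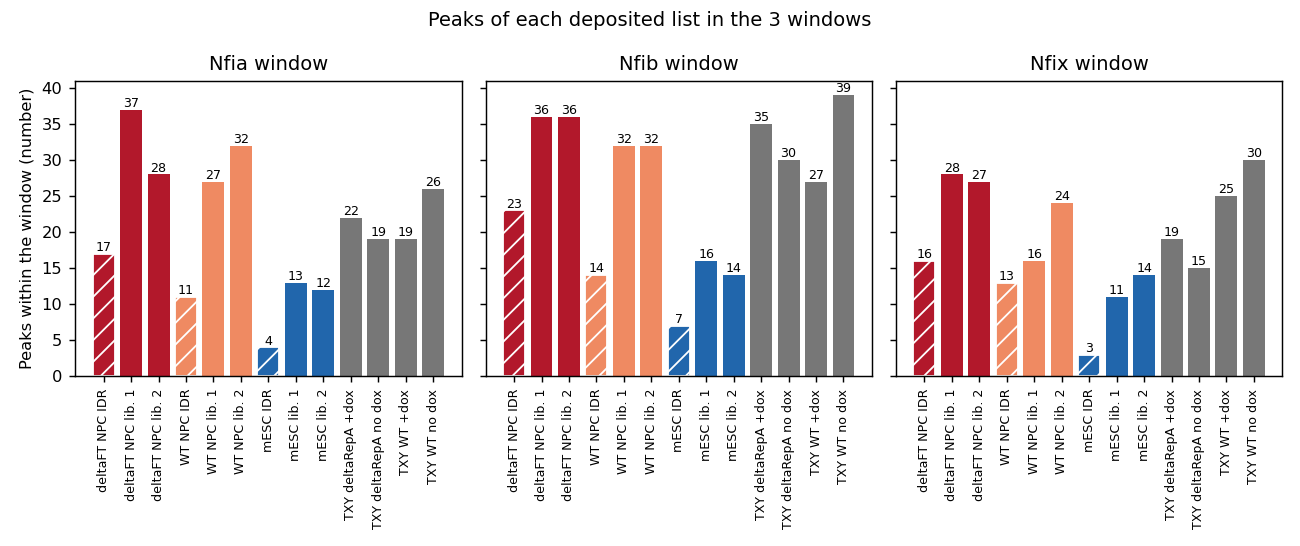
Number of peaks within each window (vertical axis) in every deposited list (horizontal axis), with 1 panel per gene; hatched bars are IDR lists, plain coloured bars library lists and grey bars the merged TXY lists. In each panel the 4 bars of NPC libraries stand above the 2 bars of mESC libraries; lists of different kinds were called differently and are not compared.

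Overlapping IDR peaks of the 3 lines were joined into 65 sites, 19 at Nfia, 28 at Nfib and 18 at Nfix, numbered along the chromosome. The same joining gave 61529 sites over the autosomes. Of the 65 sites, 5 (7.69%) were IDR peaks in all 3 lines, against 17.8% of autosomal sites, and 25 (38.5%) were shared by both NPC lines alone, against 23.2%. A further 24 (36.9%) were IDR peaks in deltaFT NPC alone, against 13.4%, but 21 of these had a peak in a WT NPC library list, as did 79.1% of such autosomal sites. WT NPC alone had 2 sites (autosomes 20%), WT NPC with mESC 4 (autosomes 1.88%), and deltaFT NPC with mESC 1 (autosomes 2.54%). The 4 sites of mESC alone (autosomes 21.2%) were all at Nfib. Of the 61 sites open in an NPC line, 38 (62.3%) had no peak in any mESC list, IDR or library, against 54.9% of autosomal NPC sites. In the male stem cells, whose lists are longer, 15 of those 38 sites (39.5%) had a peak in at least 1 TXY list, against 34.2% of autosomal ones, and 5 (13.2%) in all 4, against 8.70%.

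**Figure D2:**
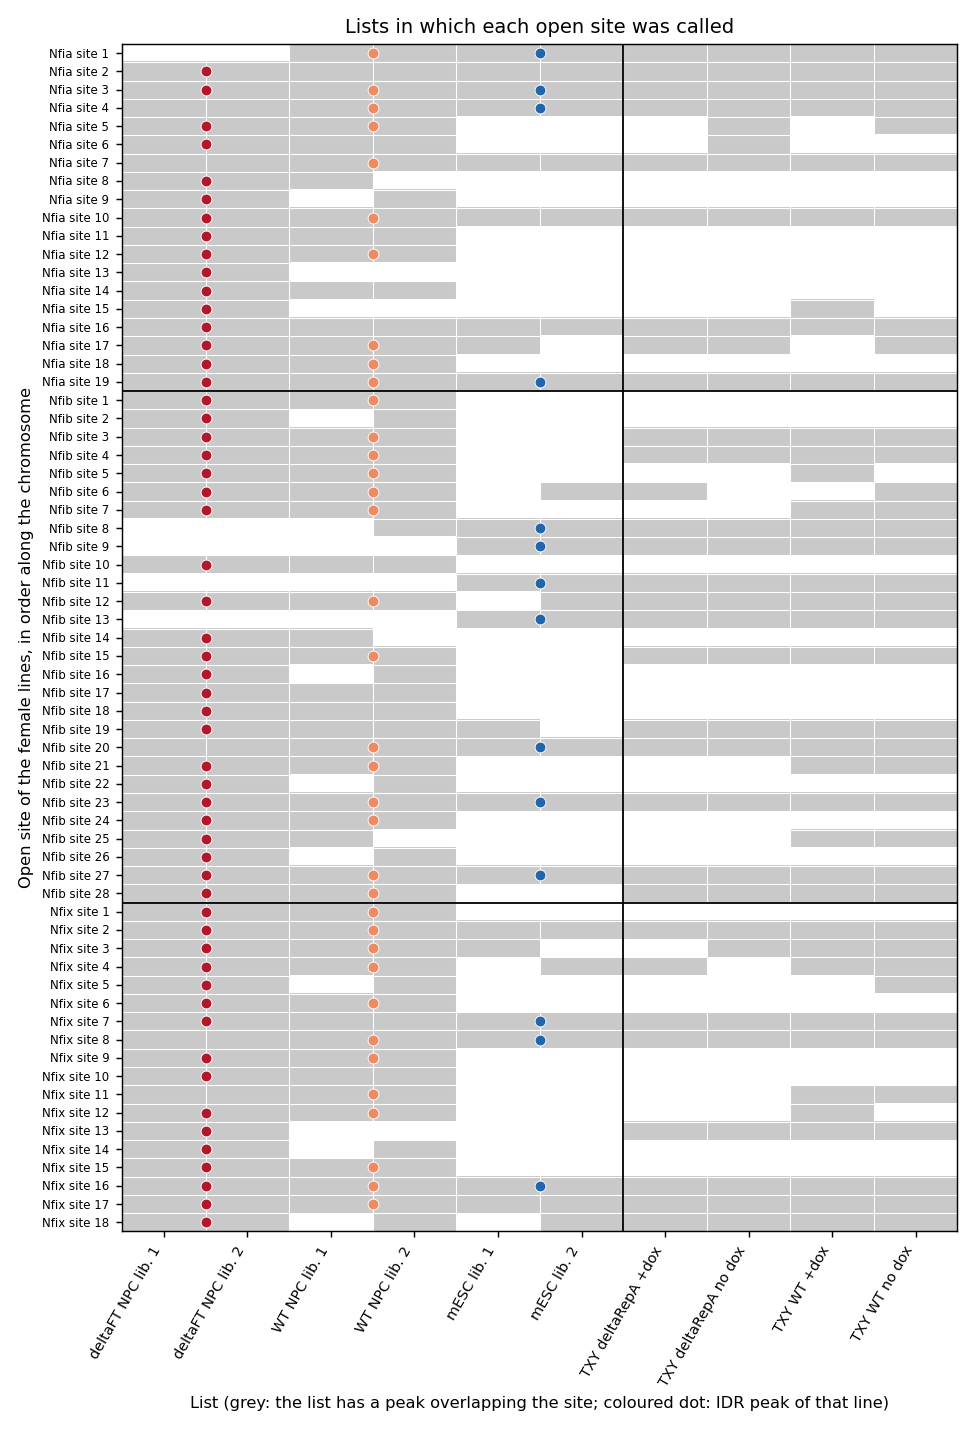
Presence of each of the 65 sites (rows, in order along the chromosome) in the 6 library lists and 4 TXY lists (columns); a grey cell is an overlapping peak, and a dot between 2 library columns marks an IDR peak of that line. Most rows are grey in all 4 NPC columns, 38 rows are empty in both mESC columns, and 4 Nfib rows carry an mESC dot alone.

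Progenitors and stem cells were compared first. Of the 38 WT NPC peaks, 20 (52.6%, interval 35.8% to 69.0%) overlapped no peak of any mESC list, while 52.5% of all autosomal WT NPC peaks did so. The share at the family's loci was close to that of all autosomes. It was 57.9% with 50% of a peak required to be covered (autosomes 61.7%), 76.3% by the mESC IDR list alone (autosomes 68.3%), and 12 of 25 peaks, or 48.0%, among those with at least 100 reads (autosomes 46.5%). It differed in number between the loci, with 3 of 11 peaks at Nfia, 10 of 14 at Nfib and 7 of 13 at Nfix. The intervals were 6.02% to 61.0%, 41.9% to 91.6% and 25.1% to 80.8%. They take peaks as independent draws, though 2 of the Nfix peaks are pieces of site 12, so they cannot weigh the loci. Of the 56 deltaFT NPC peaks, 38 (67.9%, 54.0% to 79.7%) were absent from all mESC lists, against 46.4% of autosomal peaks. In the other direction 11 of the 14 mESC peaks were found in WT NPC and 3 were not (21.4%, 4.66% to 50.8%), where 41.1% of autosomal mESC peaks were not; with 50% of a peak required to be covered, 5 were not, against 47.2%, and by the WT NPC IDR list alone also 5, against 53.7%. From deltaFT NPC 5 of 14 mESC peaks were absent, against 40.1% of autosomal peaks.

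Reads in the peaks followed the number of peaks. Reads were summed per window and scaled to 1000000 reads in all peaks of the list (RPM). Nfia held 435 RPM in deltaFT NPC, 218 in WT NPC and 126 in mESC. Nfib held 476, 263 and 150, and Nfix 245, 107 and 45.3 in the same order. The ratio of WT NPC over mESC was 1.74 at Nfia (1.61 to 1.89), 1.76 at Nfib (1.64 to 1.90) and 2.35 at Nfix (2.07 to 2.69). These sums grew with the DNA called as open, which came to 20584 bp in deltaFT NPC, 13447 bp in WT NPC and 4759 bp in mESC. Per kb of called peak the loci held 56.2, 43.8 and 67.3 RPM, where all autosomal peaks held 55.9, 55.5 and 81.3. On that scale WT NPC lay below mESC at all 3 loci. Bulk reads cannot tell apart more cells with an open site and a site more open in each cell.

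At the sites that both shared, the stem cells had the higher value. All 9 peaks matched between WT NPC and mESC had fewer RPM in WT NPC, with a median log2 ratio of -0.62, against -0.28 over 12592 matched autosomal peaks, of which 36.9% lay above 0. None was at least 2-fold higher, where 6.72% of autosomal peaks were. There were 3 at least 2-fold lower, where 21.6% of autosomal peaks were. They were Nfia site 1 with 154 reads in WT NPC and 213 in mESC (0.426-fold, 0.344 to 0.527), Nfia site 19 with 102 and 161 (0.373-fold, 0.288 to 0.481), and Nfix site 8 with 32 and 103 (0.183-fold, 0.119 to 0.275). The peaks compared were called separately, with 476 bp in WT NPC and 648 bp in mESC at Nfia site 1, 333 and 329 bp at Nfia site 19, and 130 and 343 bp at Nfix site 8. Per bp of peak the ratios were 0.580, 0.369 and 0.483, all 9 pairs stayed below 0 on the log2 scale, as did 77.4% of autosomal pairs, and 3 were at least 2-fold lower, against 18.5%, with Nfib site 27 at 0.366 in place of Nfia site 1. Of the 6 peaks matched between deltaFT NPC and mESC, 1 was at least 2-fold higher, against 7.64% of autosomal peaks, and 0 were lower, against 15.5%. The higher one was Nfia site 19, with 1035 reads in a peak of 944 bp in deltaFT NPC and 161 in one of 329 bp in mESC (3.76-fold, 3.18 to 4.47). Per bp it was at 1.31-fold and was not called, and Nfib site 27, at 0.431-fold, was the 1 pair at least 2-fold lower, against 13.5% of autosomal pairs.

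At Nfia, the gene that starts glial development, the strongest WT NPC peak was site 17 at chr4:97670775-97671366. It held 972 reads in deltaFT NPC and 490 in WT NPC (87.7 and 44.5 RPM). In mESC it had no IDR peak and a peak in 1 library list. Site 10 at chr4:97577212-97577944 followed with 580 reads in deltaFT NPC, in 2 peaks, and 418 in WT NPC; both mESC library lists held a peak there. Site 3 at chr4:97438808-97439228 was open everywhere, with 543 reads in deltaFT NPC, 349 in WT NPC and 328 in mESC (49.0, 31.7 and 50.5 RPM). It had a peak in every library and TXY list. Site 18 at chr4:97766164-97766492 was the clearest progenitor site of this window. It held 396 reads in deltaFT NPC and 335 in WT NPC and had no peak in any mESC or TXY list. The mESC peaks of the window lay at sites 1, 3, 4 and 19, of which site 4 (chr4:97439927-97440212) held 156 reads in WT NPC and 113 in mESC, with no deltaFT NPC IDR peak. Both deltaFT NPC library lists held a peak at site 4.

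At Nfib, which acts in lung and cortex maturation, the strongest WT NPC peak was site 7 at chr4:82045659-82046378, with 418 reads in deltaFT NPC and 397 in WT NPC. It had no peak in any female mESC list, but both TXY WT lists held a peak there. The next site along the chromosome was site 8 at chr4:82046486-82046775. Among the female lines site 8 showed the opposite, with 115 reads in mESC and no IDR peak in either NPC line. Site 9 at chr4:82047416-82047772 held 154 reads in mESC and site 11 at chr4:82076560-82077016 also 154. Site 13 at chr4:82082719-82082871 held 48. These 4 stem cell sites had a peak in all 4 TXY lists and none in a deltaFT NPC list; only site 8 had a peak in a WT NPC library. Site 12 at chr4:82081576-82082131, the next site before site 13, held 460 reads in deltaFT NPC and 204 in WT NPC, with no mESC IDR peak, but it had a peak in 1 mESC library list and in all 4 TXY lists. The other strong WT NPC peaks were sites 23 and 28. Site 23 at chr4:82158976-82159561 held 406 reads in deltaFT NPC, 336 in WT NPC and 305 in mESC. Site 28 at chr4:82235347-82235909 held 232 in deltaFT NPC and 316 in WT NPC. It had no peak in a female mESC list but a peak in all 4 TXY lists. The remaining mESC peaks were site 20, with 110 reads in WT NPC and 90 in mESC, and site 27, with 142 in deltaFT NPC, 120 in WT NPC and 105 in mESC. Site 20 had no deltaFT NPC IDR peak but a peak in both deltaFT NPC library lists.

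At Nfix, the regulator of neural stem cell quiescence, the highest peak of each line held fewer reads than at the other loci. Its 3 strongest in WT NPC were site 15 at chr8:87318443-87318853 with 279 reads in deltaFT NPC and 164 in WT NPC, site 16 at chr8:87334838-87335343 with 225 and 134, and site 6 at chr8:87252375-87252793 with 178 and 132. Site 16 was also a peak in mESC, with 117 reads, while sites 6 and 15 had no peak in any mESC or TXY list. The other mESC peaks were site 7 with 113 reads in deltaFT NPC and 74 in mESC, and site 8 with 32 in WT NPC and 103 in mESC. At site 7 both WT NPC library lists held a peak, and at site 8 both deltaFT NPC library lists. Over the 3 loci together the median was 156 reads per peak in deltaFT NPC, 133 in WT NPC and 116 in mESC, where autosomal peaks had 191, 169 and 152. By locus it lay above the autosomal median at Nfib in WT NPC (209) and at Nfia in mESC (187). Only 2 members, Nfia sites 17 and 19 in deltaFT NPC, ranked in the top 10% of autosomal peaks by reads.

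**Figure D3:**
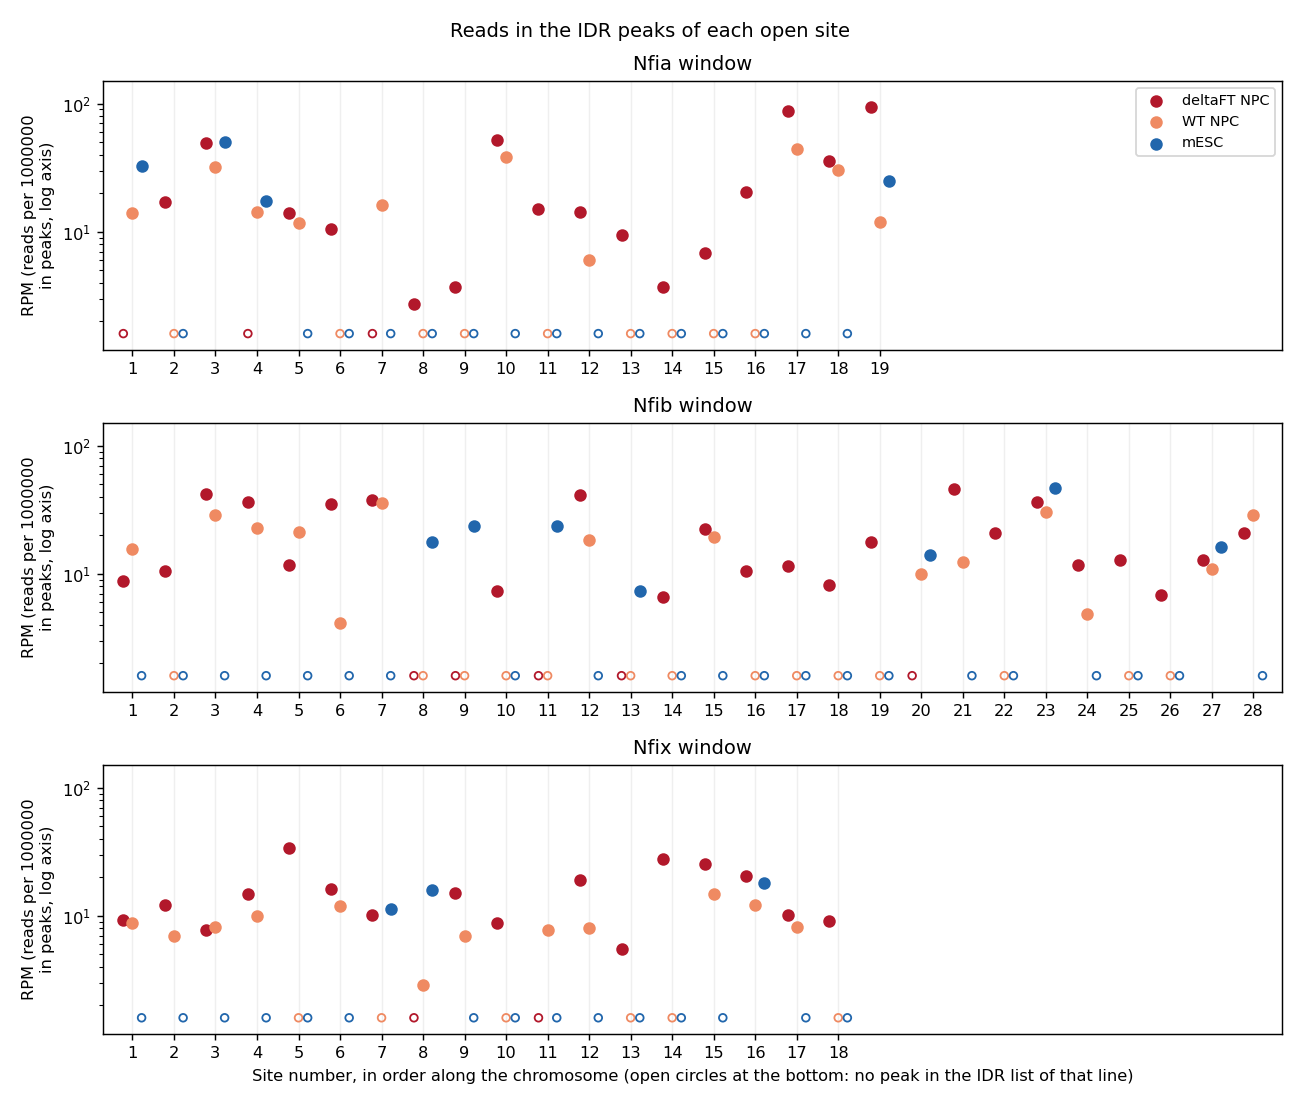
RPM in the IDR peaks of each site (vertical log axis) in order along the chromosome (horizontal axis), with 1 panel per window and 1 colour per line; an open circle at the bottom marks a site with no IDR peak in that line. Nfia sites 17 and 19 in deltaFT NPC, at 87.7 and 93.4, are the highest points, and Nfib sites 8, 9, 11 and 13 carry a filled mESC point alone.

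The 2 progenitor lines were compared next; this comparison and that with mESC share the WT NPC sample. Window sums were higher in deltaFT NPC, by 1.99-fold at Nfia (1.90 to 2.09), 1.81-fold at Nfib (1.73 to 1.89) and 2.29-fold at Nfix (2.14 to 2.46). Per kb of called peak the ratios were 1.30, 1.25 and 1.37. Most open sites were found in both lines. Of the 56 deltaFT NPC peaks, 3 (5.36%, 1.12% to 14.9%) were absent from all WT NPC lists, against 5.53% of autosomal peaks. With 50% of a peak required to be covered 11 (19.6%) were absent, against 12.3% of autosomal peaks, and by the WT NPC IDR list alone 25 (44.6%), against 27.8%. The 3 absent from all lists at 1 bp were Nfia site 13 at chr4:97593618-97593862 with 104 reads, Nfia site 15 at chr4:97615093-97615350 with 76 and Nfix site 13 at chr8:87310348-87310577 with 61. Of the 38 WT NPC peaks, 1 was absent from all deltaFT NPC lists, against 10.6% of autosomal peaks. By the deltaFT NPC IDR list alone 6 were absent, against 34.0%, and with 50% covered 1, against 17.2%. The 1 absent from all lists was Nfia site 1, with 154 reads in WT NPC and 213 in mESC.

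Among matched peaks of the 2 lines, RPM were higher in deltaFT NPC at 26 of 31. The median log2 ratio was 0.56, where that of 26001 matched autosomal peaks was 0.06 and 53.2% of them lay above 0. By locus the medians were 0.45 over 8 pairs at Nfia, 0.26 over 13 at Nfib and 0.66 over 10 at Nfix. At least 2-fold higher were 8 of the 31 pairs (25.8%), against 8.48% of autosomal pairs, and at least 2-fold lower was 1, against 9.26%. The peaks of each line were called separately and differ in width. Per bp of peak, 4 pairs (12.9%) were at least 2-fold higher, against 2.15% of autosomal pairs: Nfia site 19, Nfib sites 6 and 21, and Nfix site 9. Per peak rather than per bp, Nfia site 17 was just short of the limit at 1.97-fold, and Nfix site 9 was just past it at 2.20-fold. The ratios have no replicate check, since the deposited counts are 1 value per line.

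The largest ratio, both per peak and per bp, was at Nfia site 19, chr4:97775188-97776131. Its 1 deltaFT NPC peak of 944 bp held 1035 reads, against 102 in the matching WT NPC peak of 333 bp (10.1-fold, 8.22 to 12.5), which is 3.56-fold per bp. With both WT NPC peaks of the site summed to 132 reads the ratio was 7.79. This was also an mESC peak and had a peak in all 4 TXY lists, so WT NPC was the lowest of the 3 female lines here, with 93.4 RPM in deltaFT NPC, 12.0 in WT NPC and 24.8 in mESC. Nfib site 6 at chr4:82030183-82030740 held 389 reads over 558 bp in deltaFT NPC and 45 over 163 bp in WT NPC (8.59-fold, 6.30 to 12.0), or 2.51-fold per bp. Nfix site 12 at chr8:87298316-87298816 held 210 reads over 501 bp in deltaFT NPC against 51 over 218 bp in WT NPC (4.09-fold, 3.0 to 5.67), or 2.34-fold with both WT NPC peaks summed to 89; per bp it was at 1.78-fold, short of the limit. Nfib site 21 at chr4:82152623-82153191 held 508 reads over 560 bp in deltaFT NPC against 135 over 319 bp in WT NPC (3.74-fold, 3.09 to 4.55), or 2.13-fold per bp. These 4 sites lay in 3 different windows.

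The other ratios past 2-fold were smaller. They were 2.24 at Nfib site 12, 2.44 at Nfib site 24 (130 reads against 53), 2.36 at Nfia site 12 (157 against 66) and 2.20 at Nfix site 9 (168 against 76). Per bp these were 1.52, 1.77, 1.78 and 2.28. The 1 lower pair was a fragment of Nfia site 10, where 1 WT NPC peak of 418 reads met 2 deltaFT NPC peaks of 105 and 475 reads; per bp that fragment was at 0.961-fold, and for the whole site deltaFT NPC was at 1.38-fold. Without such splits no site was 2-fold lower. Nfib sites 1 and 5 came nearest, at 0.566-fold (98 reads in deltaFT NPC, 172 in WT NPC) and 0.556-fold (131 and 234). Nfib had 3 of its 13 pairs below 0, while Nfia and Nfix had 1 each.

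**Figure D4:**
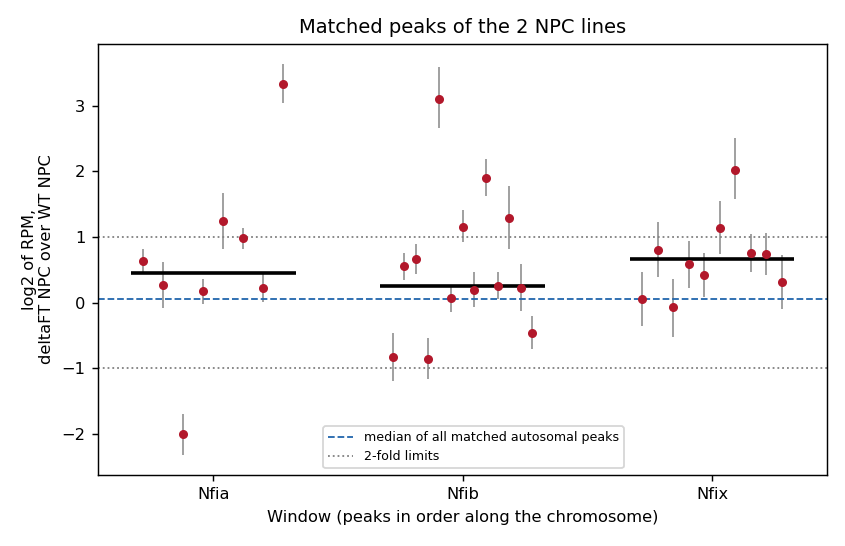
The log2 ratio of RPM in deltaFT NPC over WT NPC (vertical axis) for the 31 matched peaks, each as wide as it was called, in order along the chromosome within each window (horizontal axis); grey bars are exact 95% counting intervals, black lines the medians of 0.45, 0.26 and 0.66, the dashed line the autosomal median of 0.06 and dotted lines the 2-fold limits. Most points lie above the dashed line, 8 lie above the upper limit and 1, a fragment of a split peak, lies below the lower limit.

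Reads that could be given to 1 of the 2 parental alleles were counted per peak by the authors, in a first-listed and a second-listed column with no strain name. The first-listed share lay between 40.4% and 53.0% at Nfia and Nfib and between 32.2% and 40.6% at Nfix. At Nfia the first-listed allele held 51.3% of allelic reads in deltaFT NPC (48.3% to 54.4%), 40.4% in WT NPC (36.2% to 44.7%) and 48.0% in mESC (41.5% to 54.4%). In the 2 Mb on either side it held 50.8%, 43.6% and 47.5%, so the low WT NPC share at Nfia was that of its surroundings within the intervals. At Nfib it held 53.0% (50.7% to 55.4%), 48.7% (45.5% to 51.9%) and 51.5% (46.3% to 56.7%) in the same order, with flanks at 50.8%, 46.2% and 49.6%. At Nfix it held 37.2% (32.9% to 41.7%) in deltaFT NPC, 32.2% (24.0% to 41.3%) in WT NPC and 40.6% (28.5% to 53.6%) in mESC. The flanks of Nfix were at 47.4%, 46.8% and 50.7%. The intervals of the Nfix window and its flanks did not overlap in either NPC line, whereas in mESC, with 64 allelic reads, they did. In WT NPC the Nfix value rests on 3 peaks with 10 or more allelic reads and is 40.3% when all peaks are counted. The separation in WT NPC was seen for those 3 peaks only, since no interval was computed over all peaks. Chromosome 8 as a whole was at 44.7% in deltaFT NPC and 50.3% in WT NPC.

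Single peaks with unequal alleles were called at 10 or more allelic reads where the first-listed share was under 30% or over 70% and its interval left out 50%. In deltaFT NPC 6 of 36 usable peaks were called, against 10.8% of autosomal peaks. In WT NPC 1 of 20 was called, against 12.9%, and in mESC 0 of 11, against 12.1%. The lowest share was at Nfix site 13, with 7 first-listed and 32 second-listed reads in deltaFT NPC (17.9%, 7.54% to 33.5%). Nfix site 15 had 26 and 70 in deltaFT NPC (27.1%, 18.5% to 37.1%), and 20 and 31 in WT NPC, which was not called. Nfix site 1 had 15 and 32 in deltaFT NPC (31.9%), short of the limit, and 13 and 46 in WT NPC (22%, 12.3% to 34.7%), where it was called. All 3 called Nfix peaks leaned to the second-listed allele, as did most called peaks of chromosome 8 as a whole. There, the first-listed share was lower at 194 and higher at 51 in deltaFT NPC, and at 145 and 104 in WT NPC. By direction, first-listed lower and first-listed higher made 4 and 2 calls in deltaFT NPC (autosomes 6.24% and 4.57%), 1 and 0 in WT NPC (6.13% and 6.73%) and 0 and 0 in mESC (7.90% and 4.24%).

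On chromosome 4 the called peaks leaned both ways. Nfib site 5 had 13 first-listed and 46 second-listed reads in deltaFT NPC (22%, 12.3% to 34.7%), but 68 and 68 in WT NPC. It is among the Nfib sites with fewer reads in deltaFT NPC. Nfib site 16 had 8 and 23 (25.8%, 11.9% to 44.6%), Nfib site 14 had 18 and 7 (72.0%, 50.6% to 87.9%), and Nfia site 19 had 16 and 5 (76.2%, 52.8% to 91.8%), all in deltaFT NPC. Some strong peaks gave no allelic reads. Nfib site 21 had 0 of 508 reads in deltaFT NPC and 0 of 135 in WT NPC given to an allele, and Nfia site 19 had 21 of 1035 in deltaFT NPC. Peaks with 0 allelic reads made up 5 of 56 members in deltaFT NPC (8.93%, autosomes 6.29%), 9 of 38 in WT NPC (23.7%, autosomes 7.08%) and 2 of 14 in mESC (14.3%, autosomes 6.84%). Their cause was not tested.

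**Figure D5:**
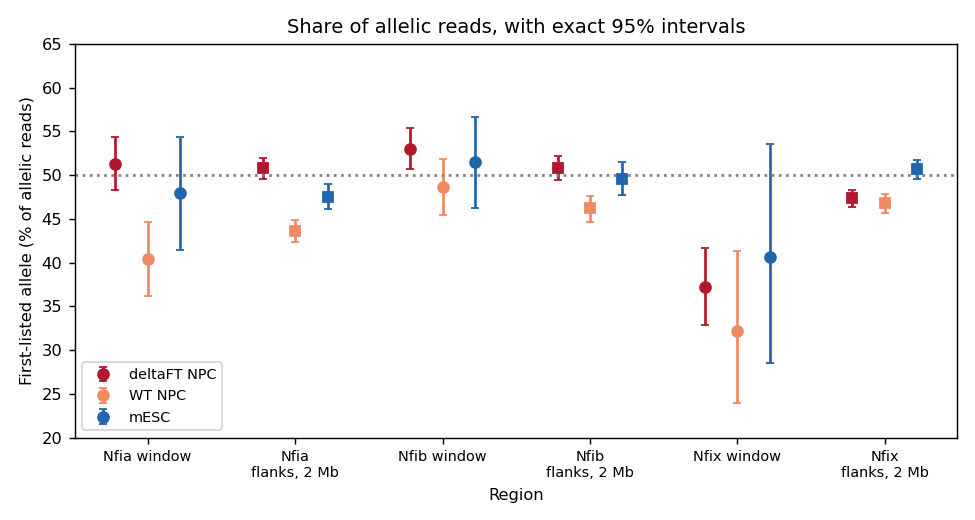
Share of allelic reads given to the first-listed allele (vertical axis, percent) in the peaks of each window (circles) and of the 2 Mb on either side (squares), by line, with exact 95% intervals that cover counting error only. The Nfix window lies at 37.2% in deltaFT NPC and 32.2% in WT NPC, below its flanks at 47.4% and 46.8%. In WT NPC the Nfix value rests on 3 peaks and is 40.3% when all peaks are counted.

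The male TXY stem cells were compared with and without dox, and with and without RepA, at these autosomal loci. All 14 mESC peaks of the female line were found in each of the 4 TXY lists, where 95.5%, 95.1%, 94.0% and 96.4% of autosomal mESC peaks were found in the deltaRepA plus-dox, deltaRepA no-dox, WT plus-dox and WT no-dox lists. Of the 56 deltaFT NPC peaks, 22, 23, 27 and 29 were found in the same order of lists, against 60.3%, 59.2%, 62.0% and 65.4% of autosomal peaks. Of the 38 WT NPC peaks the lists held 21, 22, 27 and 25, against 54.6%, 53.4%, 55.6% and 58.8%. For the deltaFT line these are 39.3% to 51.8% of the members, below the autosomal share in each list. For the WT NPC line they are 55.3% to 71.1%. In deltaRepA plus dox the share of 55.3% was close to the autosomal 54.6%, while in WT plus dox it was 71.1%, against 55.6%. No interval was computed for these shares. Of the 20 WT NPC peaks absent from mESC, the lists held 4, 5, 10 and 7, against 18.2%, 16.7%, 19.7% and 23.6%. Of the 38 deltaFT NPC peaks absent from mESC they held 5, 7, 11 and 11, against 20.1%, 18.9%, 22.7% and 27.7%. At Nfib 8 of 18 such deltaFT NPC peaks were in the WT plus-dox list, at Nfia 1 of 11 and at Nfix 2 of 9.

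At Nfia and Nfib the leading male peaks were IDR peaks of the female mESC, with Nfia site 10 as the exception. In what follows −log10 p is the peak caller's own value, used to order peaks within a list. At Nfia the first peak in each list was site 3, at 45.7 in deltaRepA plus dox, 51.0 in deltaRepA no dox, 53.3 in WT plus dox and 68.8 in WT no dox. The second was site 1 in deltaRepA plus dox (26.4) and in WT no dox (38.3), site 19 in deltaRepA no dox (31.4) and site 10 in WT plus dox (23.4). At Nfib, site 23 came first in both plus-dox lists, at 41.7 in deltaRepA and 41.8 in WT, and site 9 second, at 39.0 and 34.9. In both no-dox lists the stem cell sites 9 and 11 led, at 38.5 and 34.1 in deltaRepA and 53.3 and 51.1 in WT. At Nfix the leading peaks differed from list to list and were lower. They were site 2 (8.76) and chr8:87223700-87224062 (8.72) in deltaRepA plus dox, and chr8:87210007-87210444 (8.89) and site 13 (7.03) in deltaRepA no dox. In WT plus dox they were site 7 (19.1) and chr8:87347590-87347896 (13.4), and in WT no dox chr8:87347594-87347924 (19.5) and chr8:87322859-87323603 (14.5).

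Joined over the 4 lists, the windows held 124 TXY regions, of which 41 (33.1%) were in all 4 lists, against 25.8% of autosomal TXY regions, and 48 (38.7%) in 1 list, against 46.4%. Of the 41, 14 (34.1%) lay at a site with an mESC IDR peak, against 37.3% over the autosomes, 23 (56.1%) at a site with an NPC IDR peak, against 33.6%, and 14 at no female site, against 50.5%. Nfib had 20 such regions, Nfix 12 and Nfia 9. Among those without a female IDR peak, chr4:97412201-97413146 at Nfia, at 17.8 to 25.0 on the −log10 p scale, and chr4:82189081-82189680 at Nfib, at 12.1 to 27.4, had the highest values; both were picked after their values were seen.

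With dox the number of window peaks was 76 against 64 without it in deltaRepA, and 71 against 95 in WT. Of the no-dox peaks, 50 of 64 in deltaRepA (78.1%, 66.0% to 87.5%) were found with dox, against 68.7% of autosomal peaks. In WT 61 of 95 (64.2%, 53.7% to 73.8%) were found with dox, against 62.1%. Of the plus-dox peaks, 54 of 76 in deltaRepA (71.1%) were found without dox, against 62.8%, and 62 of 71 in WT (87.3%), against 69.4%. Between genotypes without dox, 55 of the 64 deltaRepA peaks (85.9%, 75.0% to 93.4%) were found in WT, against 66.2% of autosomal peaks. Of the 95 WT peaks 54 (56.8%, 46.3% to 67.0%) were found in deltaRepA, against 60.4%. With dox, 51 of the 76 deltaRepA peaks (67.1%, 55.4% to 77.5%) were found in WT, against 56.8%, and 49 of the 71 WT peaks (69.0%, 56.9% to 79.5%) in deltaRepA, against 63.4%. Peaks not found in the other list were weaker by their median: in WT without dox, the 34 peaks not found with dox had a median −log10 p of 4.34 and the 61 found 9.50, and in deltaRepA the 14 not found had 4.31 and the 50 found 7.55. Each list is 1 merged sample, so the spread between cultures is unknown.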

How the data were processed

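ATAC-seq peak lists of 7 samples, 1 per group, were used. Per the submitters' processing notes, reads were trimmed with cutadapt, aligned with Bowtie2 to mm9 and called with MACS2; their versions and settings, duplicate removal and Tn5 offset correction were not given in the sources used here. Each deposited IDR list holds unnormalized read counts, in total and by allele; it is not stated whether counts cover 1 library or both. The library and TXY lists deposited by the authors hold a fold enrichment (ratio over local background), not used here, and −log10 p and q values, which order or filter peaks within a list. Samples were grouped by title; both plus-dox descriptions name a no-dox file.

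Starts were made 1-based. A peak was found at an overlap of at least 1 bp, and absent when it met no peak of the IDR list or either library list of the other line. Matching between 2 lines paired each peak with the one it overlapped most. RPM are reads scaled to 1000000 reads in all peaks of the list. Shares carry Clopper-Pearson, counts Poisson and ratios conditional binomial intervals, all exact at 95%, for counting error only: without molecular identifiers, reads are not independent molecules. Neighbouring or split peaks are not independent draws either. The background is the same measure over the 19 autosomes. No p-value was computed. The steps were tested on simulated data in Python (3.11.15) using scipy 1.17.1, pandas 2.3.3 and numpy 2.4.6, and matplotlib 3.10.9 drew the figures. Members, lists and rules were chosen with earlier results of these data known. Named are the 3 strongest WT NPC peaks per locus, all mESC peaks, peaks absent from 1 NPC line, matched peaks 2-fold apart, peaks with unequal alleles and the 2 leading TXY peaks per list; a few others serve as neighbours or contrasts and were picked after their values were seen. RefSeq GRCm38.p6 gave gene names, neighbours, lengths and promoters; peaks at Nfic and at neural partner genes were not analysed here.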

Additional observations from a re-analysis of the deposited data

Results flagged for a closer look

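The number of TXY window peaks changed in opposite directions with dox in the 2 genotypes at each locus. At Nfia it was higher by 3 with dox in deltaRepA (22 against 19 peaks) and differed by -7 in WT (19 against 26). At Nfib the difference was 5 in deltaRepA (35 against 30) and -12 in WT (27 against 39). At Nfix it was 4 in deltaRepA (19 against 15) and -5 in WT (25 against 30). The difference between the genotypes was not tested, since each condition is 1 merged list. The whole lists moved the same way, with 140048 autosomal peaks with dox against 126517 without in deltaRepA, and 123996 against 137409 in WT. At a −log10 q of at least 5, a limit chosen after seeing the data, the difference in deltaRepA was 0 at Nfia, 0 at Nfib and 4 at Nfix, and in WT -2, -9 and -5. The autosomal lists at that limit held 46057 peaks with dox against 44964 without in deltaRepA, and 42338 against 58279 in WT.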

How the results depend on the processing

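Of the alternatives, 63 were labelled as leaving the reported value the same, 24 as moving it and 3 as reversing it. Shares and ratios were labelled by their interval, but counts by a fixed fold from the reported count, without an interval. By the mESC IDR list alone, 29 of 38 WT NPC peaks (76.3%) were absent from mESC. That count was labelled the same, although its share lies outside 35.8% to 69.0%, the interval of the reported share. The 3 reversals were the WT NPC over mESC ratios of window reads taken per kb of called peak: 0.728 at Nfia, 0.634 at Nfib and 0.636 at Nfix. Per kb, deltaFT NPC over WT NPC was 1.30, 1.25 and 1.37. The median log2 ratio of matched autosomal peaks was -0.28 for WT NPC over mESC and 0.06 for deltaFT NPC over WT NPC. With it set to 0, the WT NPC over mESC ratios were 2.10, 2.13 and 2.85. With 50% of a peak required to be covered, 11 deltaFT NPC peaks were absent from WT NPC, against 3 at 1 bp, and 5 mESC peaks were absent from WT NPC, against 3. Against the other line's IDR list alone, 25 deltaFT NPC peaks were absent from WT NPC, 6 WT NPC peaks from deltaFT NPC and 5 mESC peaks from WT NPC. Of the 25 WT NPC peaks with at least 100 reads, 12 (48.0%) were absent from mESC, against 20 of all 38 (52.6%). Leaving out 1 mESC library list at a time, 22 to 23 were absent; leaving out 1 deltaFT NPC library list, 1 WT NPC peak was absent from deltaFT NPC each time. Taken per bp, 4 matched peaks were 2-fold higher in deltaFT NPC than in WT NPC and 0 lower, and 0 were higher and 1 lower in deltaFT NPC than in mESC; summed per site, 0 were lower in deltaFT NPC than in WT NPC. With allele limits of 20% and 80%, 1 peak was called in deltaFT NPC and 0 in WT NPC. At a −log10 q of at least 5 the change with dox in deltaRepA over the 3 loci was 4, against 12. Widening the windows by 50 kb gave 10 Nfix peaks in mESC, against 3. The alternatives per kb, per bp, per site, at 50 reads for pairs, without the strongest site and at that q for dox changes were chosen after seeing the data. The cause of these shifts was not tested, beyond the narrower or wider definition each alternative makes. No paired analysis was possible because each group is 1 sample.

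Few allelic reads limit the allelic values: 20 of 56 members in deltaFT NPC, 18 of 38 in WT NPC and 3 of 14 in mESC had fewer than 10 allelic reads. TXY lists give no reads, so their depth is unknown.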
